A study of Mus musculus with 30 samples.

Results

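Satellite cells are the stem cells of skeletal muscle, and they are sorted from a tissue that also holds macrophages, neutrophils, vessel cells, connective tissue cells, tendon cells, nerve glia and blood. The genes described here are 45 known markers of those other cell types, chosen by symbol, of 55154 gene identifiers found in all 3 count tables. They are 12 macrophage and monocyte genes, 4 genes shared by many leukocytes, 4 neutrophil, 6 endothelial, 7 fibro-adipogenic, 5 mural, 4 tendon, 1 Schwann cell and 2 erythroid genes. All 45 were found in each table.

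The libraries came from muscle satellite cells of C57BL/6 mice, sequenced as polyadenylated RNA after barium chloride injury of the hind limb, an injury that destroys muscle fibres. The 30 libraries form 15 groups of 2. Uninjured cells had no injury, and 8 groups were taken 0.5, 1, 2, 4, 8, 16, 32 and 60 h after injury. Another 3 groups were taken 7, 14 and 28 days after it. The old cells are oQSC (no injury), oASC (2.5 days after injury) and oFISC. For oFISC the treatment label names the injury while the time label reads "freshly isolated", and which of these holds is uncertain. Per the treatment protocol the mice of every group were perfused with paraformaldehyde, a fixative, before isolation, although the source labels of oFISC and oASC do not name fixation in place. The labels give no age in numbers, and cells not called old are called younger here. They do not say that the 2 libraries of a group came from separate animals, so p-values measure only the spread between these samples. They also do not give the antibodies or gates of the sort.

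After muscle injury, neutrophils enter the tissue first, and monocytes follow and become macrophages that clear debris and signal to satellite cells. Fibro-adipogenic progenitors are resident mesenchymal cells that lay down matrix proteins such as decorin and lumican. Endothelial cells line the vessels beside which satellite cells lie, and mural cells (pericytes and smooth muscle) wrap those vessels. Some markers are shared: satellite cells are known to carry Tek, the angiopoietin receptor Tie2, and activated myoblasts can carry Acta2, smooth muscle actin. In these bulk libraries, fewer cells of a type and less RNA of a gene per cell cannot be told apart.

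The labelled cell type showed in its own markers. Pax7, the satellite cell transcription factor, was at 1746 and 1555 CPM in the 2 uninjured libraries. Its level varied widely, with a median of 151.8 CPM over the 30 libraries and a lowest value of 10.2 CPM. At its lowest it lay below many levels of other-cell markers given below. CPM here are counts per M after TMM scaling of the library total. Myod1, which starts the myogenic programme, set 1 library of each early time apart, namely 0.5 h library 2 (1508 against 119 CPM), 1 h library 2 (1790 against 162 CPM), 2 h library 1 (1882 against 82.7 CPM) and 4 h library 2 (2165 against 88.3 CPM). Library totals were 13.5 to 36.8 M counts to 60 h, 9.18 to 13.9 M from 7 to 28 days and 21.1 to 57.4 M in old cells. In the uninjured libraries a count of 0 allows up to 0.276 and 0.139 CPM (3 counts, counting error only).

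Marker genes of other cells were scarce in uninjured cells and more abundant in the hours after injury. In the uninjured libraries 14 of the 45 had no count at all, 11 had a count in all 30 libraries, and 19 reached a mean of 20 CPM in at least 1 group. The library with the most members at their highest level was 32 h library 2, with 11. Per kilobase of exon, a scale on which genes can be compared, the most abundant members in uninjured cells were Dpt at 65.1 and 72.4 CPM per kb, Acta2 at 55.9 and 31.2, and Hba-a1 at 38.9 and 40.7. The macrophage gene Lyz2 was at 1.33 and 0.565 CPM per kb in those cells and at 281 CPM per kb in 32 h library 2. The heatmap of all members gives each value.

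**Figure D1:**
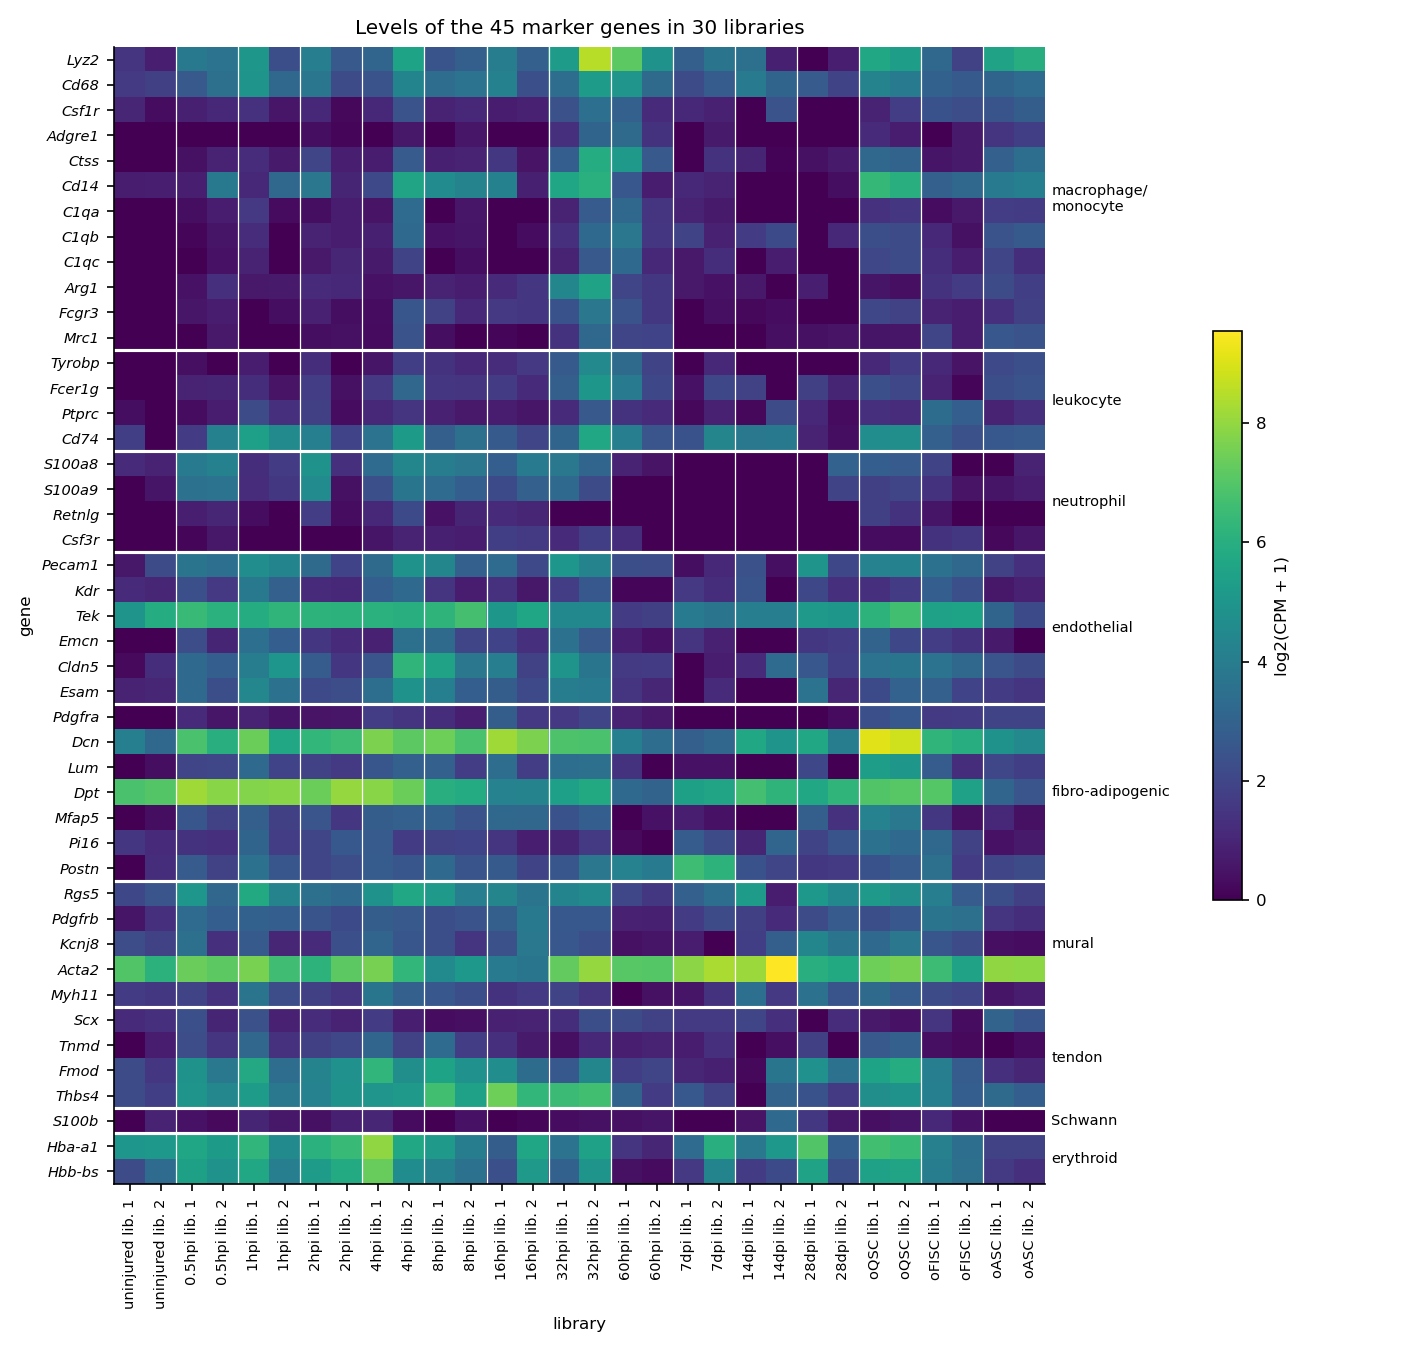
Levels of the 45 marker genes (rows, ordered by list) in the 30 libraries (columns), as log2(CPM + 1) on a colour scale. The summed level of the macrophage genes is highest in 32 h library 2, followed by 60 h library 1, and 14 genes are at 0 in both uninjured libraries.

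All 45 members passed the filter on low counts in every comparison but 28 against 7 days, where 32 passed. A gene was called at an adjusted p under 0.05 (edgeR's quasi-likelihood test, Benjamini-Hochberg adjustment over all genes tested). Against uninjured cells, 10 members were called at 0.5 h (background 10.3% of all genes tested), 14 at 1 h (10.2%), 9 after 2 h (9.31%) and 20 at 4 h (11%). There were 22 at 8 h (30.1%), 17 after 16 h (22.7%), 27 at 32 h (20.5%) and 22 after 60 h (28.3%). At 4 h all 20 rose, where 7.18% of all genes did, and at 32 h 26 of 27 rose (14.1%). At 60 h 14 rose (15.5%) and 8 fell (12.8%). Later the counts were 6 at 7 days (11.2%), 6 after 14 days (12.8%) and 3 at 28 days (6.49%), near the background. Between 28 and 7 days 1 member was called (0.295%).

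The median log2 fold change over the members was 2.89 at 0.5 h, 4.21 after 4 h, 3.90 at 32 h and 1.20 after 60 h, against 0.24, 0.17, 0.25 and 0 over all genes. With genes that had no count in a group set to the bound that 3 counts give, it was 2.42, 3.79, 3.90 and 1.20. The uninjured libraries enter all these comparisons, so the counts at different times are not independent. They also decided many calls. No call at 0.5, 1 or 2 h was kept when each library of the compared groups was left out in turn, while 2 of 20 were kept at 4 h, 6 of 22 at 8 h, 7 of 17 after 16 h, 7 of 27 at 32 h and 7 of 22 after 60 h. Without uninjured library 1 or 2 the counts at 0.5 to 4 h fell to as few as 0, 1, 1 and 2.

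**Figure D2:**
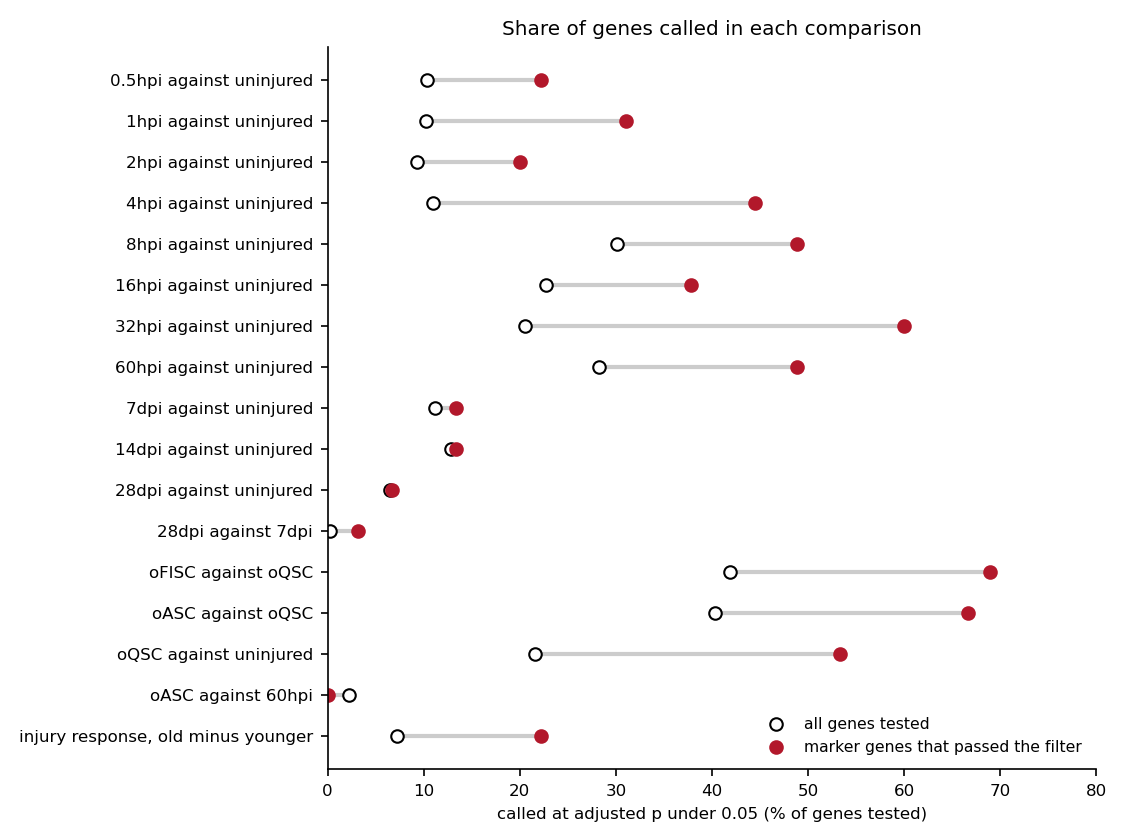
Percentage of genes called (adjusted p under 0.05) in each comparison, for all genes tested (open points) and for the marker genes that passed the filter (filled points). The marker genes stand furthest above all genes at 4 h and 32 h, and lie close to them at 7, 14 and 28 days.

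Among macrophage and monocyte genes, 9 of 12 rose at 32 h and 9 of 12 at 60 h, where 14.1% and 15.5% of all genes did. Earlier 1 rose at 0.5, 1 and 2 h, where 1546, 1476 and 1421 of 22479 genes did, and 3 after 4 h (7.18%). At 8 and 16 h 2 rose, where 3610 and 3186 of 22479 genes did. The counts at 0.5 to 2 h and at 8 and 16 h were near the shares of all genes. The 12 genes summed to 5.51 and 4.19 CPM in uninjured cells, 136 and 634 CPM at 32 h and 265 and 57.7 CPM after 60 h. Some earlier libraries lay within that range: 4 h library 2 was at 152 CPM, beside 19.8 CPM in library 1, and 1 h library 1 at 70.8 CPM, beside 22.2 CPM in library 2. The other libraries from 0.5 to 16 h were at most at 55.4 CPM. By 7 days the sum was 17.1 and 25.0 CPM, and by 28 days 7.07 and 6.03 CPM. Both libraries of 32 and 60 h thus lay above both uninjured libraries, but within each time the libraries lay far apart. At 4 and 32 h all 12 macrophage genes and all 4 leukocyte genes were higher in library 2, and at 60 h all 16 were higher in library 1. The plot of summed lists shows the split.

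**Figure D3:**
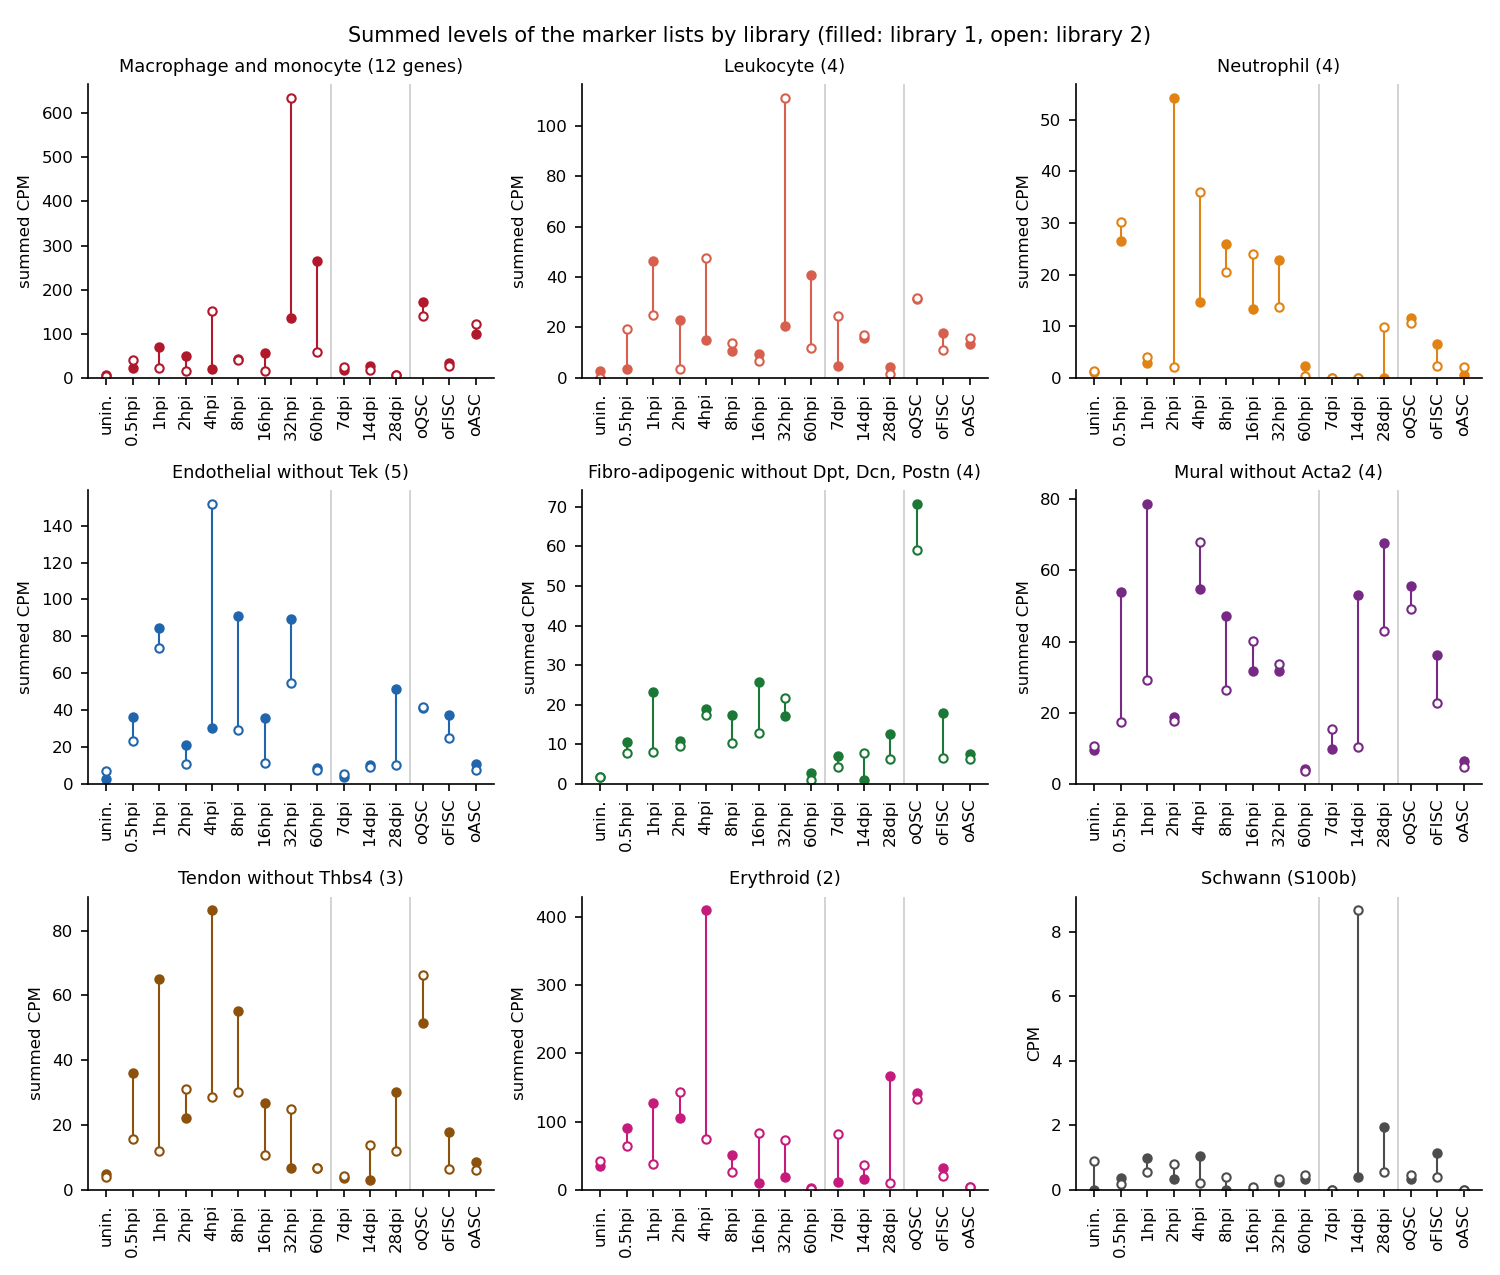
Summed CPM of the members of each list in each library (filled points, library 1; open points, library 2), by group, with S100b alone for Schwann cells. Left out of the sums are Tek (endothelial), Dpt, Dcn and Postn (fibro-adipogenic), Acta2 (mural) and Thbs4 (tendon). The macrophage sum is highest in 32 h library 2 (634 CPM), the endothelial sum without Tek in 4 h library 2 (152 CPM), and the erythroid sum in 4 h library 1 (409 CPM).

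Promoters are shown for 2 macrophage genes that had no count in uninjured cells and were called at 60 h, C1qb and Ctss, and for the neutrophil genes S100a8 and S100a9. The windows are the 250 bases before the start that RefSeq gives on GRCm38.p6, in lower case 5′ to 3′ on the gene's strand. Capitals mark GAGGAA or its reverse complement TTCCTC, the core bound by PU.1, a transcription factor of myeloid cells. C1qb lies at chr4:136886201-136886450 (minus strand), Ctss at chr3:95526536-95526785 (plus strand), S100a8 at chr3:90668821-90669070 (plus strand) and S100a9 at chr3:90695722-90695971 (minus strand).
C1qb: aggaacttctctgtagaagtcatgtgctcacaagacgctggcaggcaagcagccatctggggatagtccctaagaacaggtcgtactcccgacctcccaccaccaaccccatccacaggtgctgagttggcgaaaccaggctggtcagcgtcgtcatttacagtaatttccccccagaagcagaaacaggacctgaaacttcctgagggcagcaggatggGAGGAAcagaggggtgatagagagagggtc
Ctss: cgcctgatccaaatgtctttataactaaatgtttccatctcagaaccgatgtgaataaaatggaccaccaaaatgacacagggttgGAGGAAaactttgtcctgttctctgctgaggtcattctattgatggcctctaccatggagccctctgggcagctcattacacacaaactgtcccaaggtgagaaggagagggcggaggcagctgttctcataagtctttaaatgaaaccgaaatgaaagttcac
S100a8: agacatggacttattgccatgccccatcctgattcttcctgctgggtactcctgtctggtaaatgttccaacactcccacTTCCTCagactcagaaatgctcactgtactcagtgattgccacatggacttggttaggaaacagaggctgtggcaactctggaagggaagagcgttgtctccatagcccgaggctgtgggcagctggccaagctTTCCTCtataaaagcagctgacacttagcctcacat
S100a9: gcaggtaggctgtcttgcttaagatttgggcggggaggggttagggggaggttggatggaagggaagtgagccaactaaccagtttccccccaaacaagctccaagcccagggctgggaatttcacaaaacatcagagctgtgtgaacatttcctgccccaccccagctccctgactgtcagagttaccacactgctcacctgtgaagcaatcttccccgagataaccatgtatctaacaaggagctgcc
C1qb and Ctss each hold 1 such core, S100a8 holds 2 and S100a9 none. Of 45 members, 30 had a RefSeq promoter of 300 bases (250 before and 50 after the start), 33 windows in all. The core was in 10 of 15 windows of the macrophage, leukocyte and neutrophil genes (66.7%), 6 of 18 of the other members (33.3%) and 28.3% of 32851 promoters. A match is a description of the letters, and no binding was measured here.

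Lyz2, which encodes lysozyme of macrophages and neutrophils, reached the highest level per length of the 12 genes. It was at 1.75 and 0.744 CPM in uninjured cells, 36.6 and 369 CPM at 32 h and 139.9 and 28.7 CPM after 60 h, and its log2 fold changes were 7.37 ± 1.56 (SE; edgeR adjusted p = 0.00705) and 6.12 ± 1.48 (adjusted p = 0.00929). At 32 h the call was lost without uninjured library 1 (adjusted p = 0.0566) or library 2 (0.073). At 60 h it was lost without uninjured library 1 (0.055) or 2 (0.0859) or 60 h library 1 (0.0521). Ctss, the protease cathepsin S that works in antigen presentation, was without a count in uninjured cells and stood at 6.2 and 58.4 CPM at 32 h and 34.6 and 5.36 CPM after 60 h. That is at least 323-fold and at least 216-fold higher, against 3 counts over both uninjured libraries. The call at 60 h was kept without each library, and that at 32 h was lost without uninjured library 2 (adjusted p = 0.055).

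Arg1, the arginase of wound macrophages, peaked in both libraries of 1 time. It was without a count in uninjured cells and stood at 1.24 and 1.85 CPM at 16 h, 19.6 and 44.4 CPM after 32 h and 2.98 and 1.92 CPM at 60 h. At 32 h it was at least 333-fold higher (adjusted p = 0.000286), and the call was kept without each library (0.00123 to 0.00551). The Fc receptor gamma chain gene Fcer1g, which carries signals of activating receptors in myeloid cells, was at 6.40 and 32.4 CPM at 32 h and 14.6 and 3.19 CPM after 60 h, from no count. It was at least 197-fold and 95.8-fold higher, with calls kept at both times. Tyrobp, another such adaptor, also without a count in uninjured cells, was at 5.50 and 21.6 CPM at 32 h (at least 138-fold higher, adjusted p = 0.0241), a call lost without any 1 library, 0.0544 to 0.137.

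The complement genes C1qa, C1qb and C1qc lie side by side on chromosome 4 and mark tissue macrophages. They did not share the peak of Arg1 in both libraries of 32 h. Their sum was 0 in uninjured cells, 1.78 and 20.7 CPM at 4 h, 3.21 and 19.7 CPM after 32 h and 29.6 and 4.68 CPM at 60 h. At each of these times after injury 1 library held most of it, and C1qa was highest in 4 h library 2, at 9.16 CPM. All 3 rose at 60 h, by at least 52.6-fold, 79.9-fold and 52.6-fold. The calls were lost without uninjured library 1 or 2 or 60 h library 1, at adjusted p of 0.109 to 0.156 for C1qa, 0.103 to 0.136 for C1qb and 0.151 to 0.188 for C1qc. C1qc was also lost without 60 h library 2 (0.0602). Only C1qb among them was called at 32 h (adjusted p = 0.0421), and its call there was lost without any 1 library, 0.075 to 0.193. Adgre1, the F4/80 antigen of mature macrophages, was without a count in uninjured cells. It was at 1.52 and 7.48 CPM at 32 h, which overlapped the levels of 60 h. Its mean was highest at 60 h, at 8.80 and 1.62 CPM (at least 56.3-fold, adjusted p = 0.0384). That call, too, was lost without uninjured library 1 (0.127) or 2 (0.16) or 60 h library 1 (0.128) or 2 (0.0563).

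Cd14, the co-receptor for bacterial lipopolysaccharide on monocytes, followed a different course from the C1q genes. It was at 0.643 and 0.744 CPM in uninjured cells, 23.5 and 18.1 CPM at 8 h, 49.5 and 65.1 CPM after 32 h and 5.02 and 0.681 CPM at 60 h. The rise at 32 h (log2 fold change 6.34 ± 2.09, adjusted p = 0.0484) was lost without any 1 library, 0.098 to 0.212. At 0.5 to 4 h the higher Cd14 library was the one with the higher Myod1, namely 0.5 h library 2 (13.5 against 0.736 CPM), 1 h library 2 (8.03 against 1.07 CPM), 2 h library 1 (12.7 against 0.980 CPM) and 4 h library 2 (46.2 against 3.27 CPM). The lysosomal marker Cd68 rose at 32 h (log2 fold change 3.36 ± 1.08, adjusted p = 0.0439) and at 60 h (3.09 ± 1.07, 0.0462). It was at 2.11 and 2.46 CPM in uninjured cells, 9.72 and 38.0 CPM at 32 h and 30.6 and 8.86 CPM after 60 h, and both calls were lost without any 1 library, 0.0653 to 0.255 and 0.0505 to 0.267.

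Of the remaining macrophage genes, Csf1r, the receptor of the macrophage growth factor, was at 1.01 and 0.233 CPM in uninjured cells and 4.12 and 10.2 CPM at 32 h (log2 fold change 3.57 ± 1.17, adjusted p = 0.0481, lost without any 1 library, 0.0917 to 0.246). Some of its exon bases (15.1%) overlap Hmgxb3 on the other strand, and the strand of counting is not given in the sources used here. Fcgr3, an IgG receptor, was called at 4, 8, 16, 32 and 60 h, each call lost without either uninjured library, and was highest at 32 h, at 4.26 and 12.8 CPM from no count (at least 87.7-fold, 0.061 without uninjured library 1 and 0.0735 without 2). Mrc1, the mannose receptor of resident macrophages, was at 1.64 and 8.19 CPM at 32 h from no count (at least 49.8-fold, adjusted p = 0.0463, lost without any 1 library, 0.0871 to 0.199).

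Of the leukocyte genes, Cd74, the invariant chain of antigen-presenting cells, was already abundant 1 h after injury. It was at 2.39 and 0 CPM in uninjured cells, 40.8 and 23.0 CPM at 1 h, 7.38 and 51.5 CPM after 32 h, and it was called at no time up to 60 h. Ptprc, the CD45 antigen of all leukocytes, was at most 5.28 CPM up to 60 h. It rose at 32 h (1.21 and 5.28 CPM, log2 fold change 4.78 ± 1.42, adjusted p = 0.0329), a call lost without uninjured library 2 (0.177) or 32 h library 1 (0.0549) or 2 (0.168). Of 12 further macrophage genes, 4 rose at 32 h (14.1% of all genes did) and 5 at 60 h (15.5%), and none was called from 0.5 to 16 h. The one with the highest mean CPM, Laptm5, a lysosomal protein of blood cells, was at 1.56 and 0.837 CPM in uninjured cells, 4.34 and 20.4 CPM at 32 h and 30.3 and 15.4 CPM after 60 h (log2 fold change 4.26 ± 0.95 at 60 h, adjusted p = 0.00615).

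Among the 4 neutrophil genes S100a8 was the one called at 0.5 h. The 4 summed to 1.19 and 1.35 CPM in uninjured cells, 26.5 and 30.3 CPM at 0.5 h, only 2.95 and 4.14 CPM after 1 h, and 2.30 and 0.426 CPM at 60 h. S100a8, which with S100a9 forms the abundant cytosolic protein calprotectin, was at 1.19 and 0.883 CPM in uninjured cells and 14.5 and 17.4 CPM at 0.5 h (log2 fold change 3.91 ± 1.06, adjusted p = 0.0363). It was called at 0.5, 2, 4, 8, 16 and 32 h, with levels of 15.6 and 12.6 CPM at 8 h and 13.1 and 7.75 CPM after 32 h. At 60 h it was at 0.893 and 0.426 CPM and at 7 and 14 days at 0. Each of its calls was lost without uninjured library 1 or 2, at adjusted p of 0.0932 to 0.202. At 0.5 h it was also lost without 0.5 h library 2 (0.101), at 2 h without 2 h library 1 (0.802) and at 4 h without 4 h library 2 (0.174). It was lost as well without either injured library at 8 h (0.0581 and 0.0676), 16 h (0.0805 and 0.155) and 32 h (0.0657 and 0.171).

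The ratio of granule genes to the S100 pair varied between libraries (sums in CPM, not per length, to be read across libraries), and no test of it was run. The granule protein genes Camp, Ngp and Ltf, which are transcribed in immature neutrophils of the bone marrow, summed to 22.9 and 33.9 CPM at 0.5 h, where S100a8 and S100a9 summed to 25.7 and 28.7 CPM. At 8 h the granule genes were at 0.356 and 1.29 CPM while the S100 pair was at 24.7 and 18.9 CPM, and at 32 h they were at 0.282 and 0.339 CPM against 21.6 and 11.2 CPM. At 2 h library 1 held 65.4 CPM of granule genes and 51.8 CPM of the S100 pair, and library 2 held 1.27 and 1.82 CPM. At 1 h library 1 held 0.279 CPM of granule genes and 2.71 CPM of the S100 pair, as low a granule level as in the late libraries, and library 2 held 6.65 and 4.14 CPM. The libraries of 4 h were split, with no granule count in library 1 at 13.2 CPM of the S100 pair, and 19.0 CPM beside 31.7 CPM in library 2. At 0.5, 1, 2 and 4 h both sums were higher in the library with the higher Myod1, as for Cd14. None of these 3 granule genes was called at any time up to 60 h, and Ly6g, the antigen that defines mouse neutrophils, was at most 0.184 CPM in any library. The part of blood in this split was not tested. The globin genes, which mark red cells, were at 49.1 and 35.4 CPM (Hba-a1) at 0.5 h and 31.6 and 33.0 CPM in uninjured cells. Hbb-bs was at 42.2 and 28.7 CPM at 0.5 h against 3.67 and 9.11 CPM in uninjured cells, and Hbb-bt at 24.1 and 14.4 CPM against 4.50 and 6.32 CPM. Hba-a1 and Hbb-bs together were at 91.25 and 64.04 CPM at 0.5 h and 127.8 and 37.65 CPM after 1 h. They were at 104.6 and 142.6 CPM at 2 h and 409 and 74.57 CPM after 4 h. At each of these times the higher globin sum lay in the library with the lower granule sum.

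**Figure D4:**
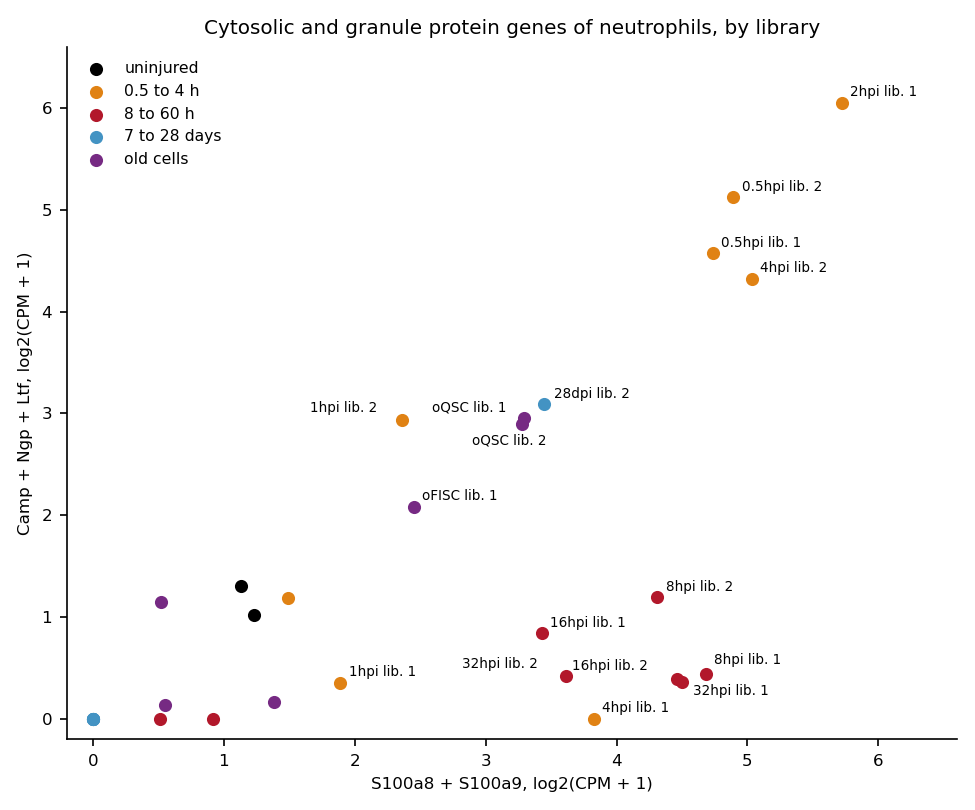
Each point is 1 library, with the summed level of S100a8 and S100a9 on the x axis and of Camp, Ngp and Ltf on the y axis, both as log2(CPM + 1), coloured by time. Both 0.5 h libraries, 2 h library 1 and 4 h library 2 are high on both axes, while the 8, 16 and 32 h libraries are high on the x axis only.

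S100a9 was called at 8 h alone (9.07 and 6.24 CPM from 0 and 0.465 CPM, adjusted p = 0.0393), a call lost without any 1 library, 0.0739 to 0.165. The other neutrophil members were low. Csf3r, the receptor of granulocyte colony-stimulating factor, was without a count in uninjured cells and stood at 2.38 and 2.06 CPM at 16 h (at least 23.8-fold, adjusted p = 0.0314, lost without any 1 library, 0.0689 to 0.15). Retnlg, a resistin-like secreted protein, was at 1.09 and 3.38 CPM at 4 h (at least 23.5-fold, adjusted p = 0.0412), a call lost without either uninjured library (0.165 and 0.182) or 4 h library 2 (0.16). It had no count from 32 h to 28 days. In 28 day library 2 the S100 pair stood at 9.87 CPM and the granule genes at 7.54 CPM, while library 1 had no count of either.

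The sum of the endothelial genes apart from Tek lay above both uninjured libraries in every library from 0.5 to 32 h, but it was not steady. The sum of Pecam1, Kdr, Emcn, Cldn5 and Esam was 2.85 and 6.98 CPM in uninjured cells, 84.3 and 73.5 CPM at 1 h, 30.5 and 152 CPM after 4 h, 91.3 and 29.1 CPM by 8 h, then 89.2 and 54.7 CPM after 32 h. Already at 0.5 h, library 1 held 36.4 CPM and library 2 held 23.4 CPM. By 2 h the sum was down to 21.1 CPM (library 1) and 10.8 CPM (library 2). The 16 h group had 35.5 CPM in library 1 beside 11.2 CPM in library 2. At 60 h the sum was at 8.55 and 7.54 CPM. All 5 were called at 1 and 4 h (10.2% and 11% of all genes), and 4 of the 5 at 8 and 32 h (30.1% and 20.5%). Of 10 further endothelial genes 7 rose at 1 h, where 1476 of 22479 genes did, 5 at 4 h (7.18%) and 7 after 32 h (14.1%). None was called at 60 h (28.3%). Fabp4, a fatty acid binding protein of capillaries, was at 3.67 and 10.6 CPM in uninjured cells and 138 and 61.4 CPM at 1 h.

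Emcn and Esam kept their calls at 8 and 32 h. Emcn, the sialomucin endomucin, was without a count in uninjured cells and stood at 10.3 and 6.25 CPM at 1 h, 8.79 and 2.97 CPM after 8 h and 10.7 and 5.42 CPM at 32 h, at least 88.4-fold, 59.4-fold and 89.8-fold higher. Its calls at 8 and 32 h were kept without each library, and that at 1 h was lost without uninjured library 1 (0.0621) or 2 (0.0672). Esam, an adhesion molecule of endothelial junctions, was at 0.919 and 1.02 CPM in uninjured cells, 16.6 and 6.18 CPM at 8 h (log2 fold change 3.51 ± 0.70, adjusted p = 0.00565) and 15.1 and 14.2 CPM after 32 h (3.91 ± 0.71, 0.00331), both kept without each library. Cldn5, the tight junction claudin, was at 0.184 and 1.40 CPM in uninjured cells and 4.77 and 75.1 CPM at 4 h (log2 fold change 5.54 ± 1.42, adjusted p = 0.0283), lost without uninjured library 1 (0.181) or 2 (0.0872) or 4 h library 2 (0.297). Pecam1, the CD31 antigen, was at 0.551 and 3.53 CPM in uninjured cells and 31.3 and 18.1 CPM at 32 h (3.56 ± 0.93, 0.0187), lost without uninjured library 1 (0.128) or 32 h library 1 (0.102). Kdr, a receptor of vascular endothelial growth factor, peaked at 1 h, at 13.7 and 6.65 CPM from 1.19 and 1.02 CPM (3.17 ± 0.70, 0.0157, lost without uninjured library 1 at 0.114 or 2 at 0.117 or 1 h library 1 at 0.0712). At 60 h Kdr was at 0.128 CPM in both libraries and had fallen by 3.08 ± 0.78 in log2 units (adjusted p = 0.0121), a call lost without uninjured library 1 (0.0506) or 60 h library 1 (0.0821) or 2 (0.0847).

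Tek followed its own course. It was at 29.4 and 59.3 CPM in uninjured cells. It lay between 59.5 and 105 CPM in all libraries from 0.5 to 8 h, at 21.0 and 20.8 CPM at 32 h, and at 2.25 and 2.47 CPM after 60 h. At 60 h it had fallen by 4.24 ± 0.41 in log2 units (adjusted p = 8.75e-05), a call kept without each library, and both 60 h libraries lay below every other younger library. It was at 14.3 and 11.7 CPM at 7 days, 15.9 and 15.9 CPM after 14 days and 34.8 and 32.4 CPM at 28 days. The fall at 7 days (1.77 in log2 units, adjusted p = 0.00422) was lost without uninjured library 2 (0.086) or 7 day library 2 (0.057), and that at 14 days (1.48, 0.0124) without uninjured library 2 (0.145).

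The fibro-adipogenic genes did not move together: at 8, 16 and 32 h Dcn was called higher and Dpt lower. The Dpt call at 8 h was lost without any 1 library (0.0975 to 0.181), and that at 32 h without uninjured library 1 (0.055) or 2 (0.0718) or 32 h library 1 (0.101). Dcn, the matrix proteoglycan decorin, was at 16.3 and 8.37 CPM in uninjured cells, 200.4 and 142 CPM at 4 h, and 290 and 202 CPM after 16 h. Its log2 fold changes were 3.77 ± 0.59 at 4 h (adjusted p = 0.00378), 4.33 ± 0.60 after 16 h (0.0011) and 3.20 ± 0.57 at 32 h (0.00302), all kept without each library. By 60 h it was at 16.5 and 9.75 CPM. Dpt, the matrix protein dermatopontin, was at 112 and 125 CPM in uninjured cells, 289.6 and 232 CPM at 0.5 h, 18 and 18.4 CPM after 16 h and 8.55 and 7.28 CPM at 60 h. It fell by 2.69 ± 0.32 on the log2 scale at 16 h (adjusted p = 0.000719) and by 3.91 ± 0.34 at 60 h (4.42e-05), both kept without each library. It was at 42.4 and 46.3 CPM at 7 days and 103 and 72.6 CPM after 14 days. Among younger cells Dcn was highest at 16 h, when Dpt was low, while oQSC had more Dcn and did not have low Dpt (548 and 461 CPM of Dcn, 123 and 132 CPM of Dpt).

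Pdgfra, the receptor that defines fibro-adipogenic progenitors, was without a count in uninjured cells and stayed low throughout. It was at 6.04 and 1.98 CPM at 16 h, at least 41.1-fold higher (adjusted p = 0.00113, kept without each library), and 0.893 and 0.553 CPM after 60 h. The proteoglycan lumican, Lum, rose at 4, 8, 16 and 32 h, each call lost without uninjured library 1 (0.128 to 0.236), and reached 9.87 and 10.4 CPM at 32 h from 0 and 0.279 CPM (log2 fold change 5.90 ± 1.54, adjusted p = 0.0184), a call lost without uninjured library 1 (0.128) or 2 (0.064) or 32 h library 1 (0.0622). Mfap5, a microfibril protein, was at 8.43 and 7.89 CPM at 16 h from 0 and 0.279 CPM (5.6 ± 1.20, 0.00746), lost without uninjured library 1 (0.0621). Pi16, a marker of a universal fibroblast state, was at 1.84 and 1.25 CPM in uninjured cells and 0.170 and 0 CPM at 60 h, where it fell by 4.11 ± 1.05 in log2 units (adjusted p = 0.0122, lost without uninjured library 1 at 0.0529 or 60 h library 2 at 0.0819).

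Postn, the matricellular protein periostin of healing tissue, was the member that marked 7 days. It was at 0 and 1.35 CPM in uninjured cells, 18 and 13.9 CPM at 60 h, 94.0 and 71.9 CPM after 7 days, 4.31 and 2.99 CPM at 14 days and 1.94 and 2.06 CPM after 28 days. It rose by a log2 fold change of 4.44 ± 1.03 at 60 h (adjusted p = 0.00749) and 6.80 ± 1.02 after 7 days (0.000204), both kept without each library. Its fall from 7 to 28 days, of 5.24 ± 0.46 in log2 units (adjusted p = 0.028), was the only call among the members in that comparison and was lost without any 1 library, 0.146 to 0.248. Of 12 further fibro-adipogenic genes, 3 rose (15.5% of all genes did) and 3 fell (12.8%) at 60 h, and 3 rose (5.84%) and 2 fell (5.35%) at 7 days. The matrix protease Mmp2 was at 269.7 and 360.4 CPM in uninjured cells and 21.1 and 22.9 CPM at 60 h, a fall of 3.85 ± 0.30 in log2 units (adjusted p = 4.42e-05). Gsn was at 402.7 and 459.3 CPM in uninjured cells, 160.4 and 151.9 CPM at 60 h and 231.6 and 252.5 CPM after 7 days. The collagen gene Col3a1 was at 762.8 and 564 CPM, 268.8 and 302.8 CPM, and 1325 and 1076 CPM in these groups. Col1a1 was at 28.67 and 18.23 CPM, 36.03 and 35.97 CPM, and 135.3 and 193.9 CPM.

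Of the mural genes, Acta2 took its own course. It was at 123 and 68.4 CPM in uninjured cells, 14.1 and 12 CPM at 16 h, 151 and 258 CPM after 32 h and 134 and 131 CPM at 60 h. The fall at 16 h, by 2.87 ± 0.54 in log2 units (adjusted p = 0.00407), was kept without each library. At 14 days it was at 278 and 746 CPM (log2 fold change 2.42 ± 0.53, adjusted p = 0.00472), and this rise was lost without uninjured library 2 (0.123) or 14 day library 2 (0.147). The smooth muscle myosin gene Myh11 was at 2.21 and 1.95 CPM in uninjured cells and 0 and 0.341 CPM at 60 h. It fell by 3.58 ± 0.98 on the log2 scale at 60 h (adjusted p = 0.0169, lost without uninjured library 1 at 0.0572 or 60 h library 1 at 0.0703).

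The other mural genes differed among themselves. Rgs5, Pdgfrb, Kcnj8 and Myh11 together were at 9.65 and 10.8 CPM in uninjured cells, 78.7 and 29.3 CPM at 1 h and 4.30 and 3.53 CPM after 60 h. Most of the sum at 1 h was Rgs5, at 54.7 and 18.3 CPM, while Kcnj8 was at 5.57 and 1.05 CPM there, and Pdgfrb at 60 h, at 0.851 and 0.809 CPM, lay between its uninjured libraries. Rgs5, a regulator of G protein signalling, was at 3.22 and 4.70 CPM in uninjured cells and 28.7 and 51.2 CPM at 4 h (log2 fold change 3.31 ± 0.71, adjusted p = 0.0144), lost without uninjured library 1 (0.128) or 2 (0.081) or 4 h library 2 (0.0834). Pdgfrb, the platelet-derived growth factor receptor of pericytes, was at 0.459 and 1.53 CPM in uninjured cells and 6.49 and 13.3 CPM at 16 h (3.28 ± 0.56, 0.00284, kept without each library). Kcnj8, a potassium channel subunit, was at 3.77 and 2.60 CPM in uninjured cells and 0.340 and 0.468 CPM at 60 h, a fall of 2.97 ± 1.04 in log2 units (adjusted p = 0.0497) that was lost without any 1 library, 0.099 to 0.215. Of 8 further mural genes 1 rose (15.5% of all genes did) and 3 fell (12.8%) at 60 h. The one with the highest mean CPM, Notch3, a receptor that satellite cells also carry, was at 1801 and 1625 CPM in uninjured cells and 17.5 and 12.8 CPM at 8 h.

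Thbs4, a matrix protein of tendon and of its junction with muscle, was the tendon gene whose rises were kept. It was at 3.49 and 2.37 CPM in uninjured cells, 101 and 43.1 CPM at 8 h, 171 and 79.6 CPM after 16 h and 90.6 and 100.2 CPM at 32 h, and 7.32 and 2.13 CPM after 60 h. Its log2 fold changes were 4.60 ± 0.73 (adjusted p = 0.00264), 5.44 ± 0.76 (0.0011) and 5.03 ± 0.74 (0.00125) at 8, 16 and 32 h, kept without each library. The other tendon genes, Scx, Tnmd and Fmod, summed to 86.4 and 28.6 CPM at 4 h and 26.8 and 10.9 CPM after 16 h, when Thbs4 was at its highest. Fmod, the collagen-binding fibromodulin, was at 3.58 and 1.86 CPM in uninjured cells and 76.5 and 25.2 CPM at 4 h (log2 fold change 4.21 ± 0.95, adjusted p = 0.0169), lost without uninjured library 1 (0.101) or 2 (0.13) or 4 h library 1 (0.0518). Scx, a transcription factor of tendon progenitors, was called at no time up to 28 days. Tnmd, the tendon membrane protein tenomodulin, was called at 8 h (9.07 and 2.33 CPM, adjusted p = 0.0313) and had similar levels at 4 h (7.72 and 2.66 CPM) and 1 h (7.96 and 1.56 CPM), which were not called. The call was lost without uninjured library 1 (0.14) or 8 h library 1 (0.191) or 2 (0.0527). Of 6 further tendon genes, Prg4 alone, the lubricin of joint surfaces, had its highest library at 16 h. It was at 131 and 107 CPM there, from 1.19 and 3.02 CPM in uninjured cells (5.79 ± 0.73, 0.000779). The highest library of Comp was at 1 h, of Chad at 4 h, of Cilp2 at 8 h and of Mkx and Kera in oQSC. At 0.5 h Prg4 was at 3.44 and 3.83 CPM, when Thbs4 was already at 29.8 and 20.4 CPM.

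**Figure D5:**
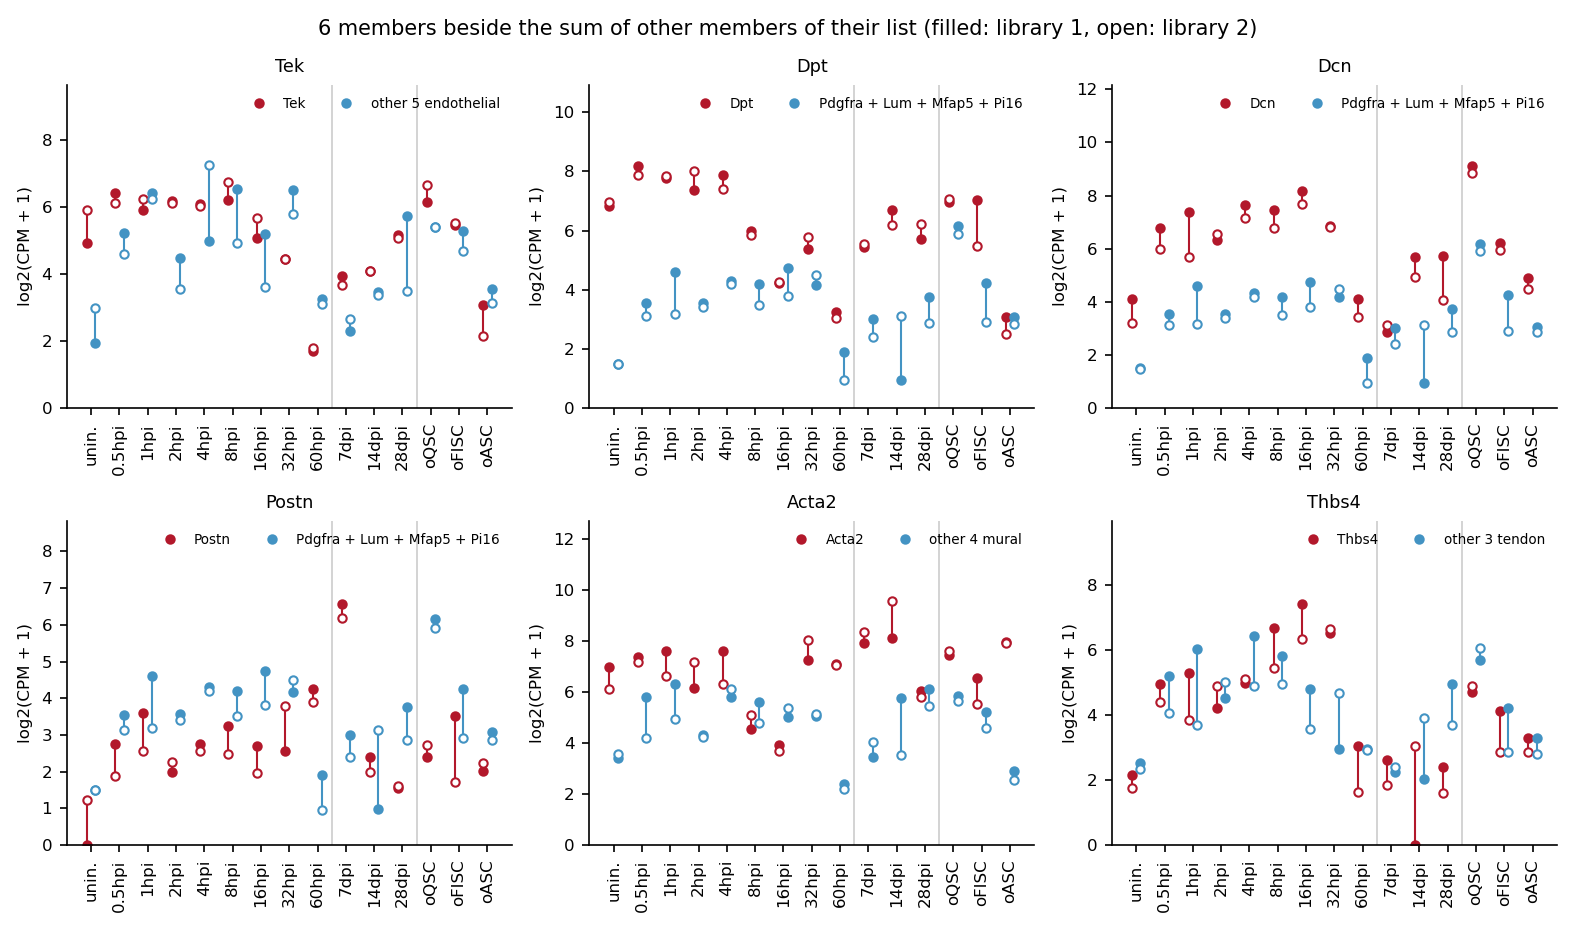
Levels of Tek, Dpt, Dcn, Postn, Acta2 and Thbs4 (red) beside the summed level of other members of the same list (blue), as log2(CPM + 1) by group (filled points, library 1; open points, library 2). Among younger cells Tek and Dpt are lowest at 60 h and Acta2 at 16 h, while Postn is highest at 7 days and Thbs4 at 16 h; levels are not per length.

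The single Schwann cell member, S100b, stayed at or below 1.94 CPM in all libraries but 14 day library 2, at 8.65 CPM. Mbp, a myelin gene of the 8 further Schwann genes, was also highest in that library, at 32.3 CPM against 1.04 CPM in library 1. The globin genes varied between libraries of a group. Hba-a1 levels were 248 and 50.7 CPM at 4 h, 123 and 6.31 CPM after 28 days and 1.79 and 1.02 CPM at 60 h. The fall at 60 h, by 4.53 ± 1.09 in log2 units (adjusted p = 0.00927), was lost without 60 h library 1 (0.0558) or 2 (0.0866). Hbb-bs was at 3.67 and 9.11 CPM in uninjured cells, 161 and 23.9 CPM at 4 h (log2 fold change 3.81 ± 1.12, adjusted p = 0.0461, lost without any 1 library, 0.0527 to 0.255) and 0.340 and 0.213 CPM after 60 h (fell by 4.53 ± 1.26 in log2 units, adjusted p = 0.0181), lost without uninjured library 2 (0.0962) or 60 h library 1 (0.0925) or 2 (0.124). Both have near-identical copies, Hba-a2 and Hbb-bt, between which reads could be split, so the levels of single globin genes are uncertain. Of 6 lymphocyte genes, 4 of which passed the filter, none rose up to 60 h, and the B cell gene Cd79a fell at 60 h.

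From 7 days on few members were called. At 7 days Postn, Arg1, Fcer1g and Emcn rose and Tek and Dpt fell, and all but the call of Postn were lost without uninjured library 2 (0.0833 to 0.305). At 14 days C1qb, Fcer1g, Dcn and Acta2 rose and Tek and Esam fell. Dcn was at 51 and 29.3 CPM there (log2 fold change 1.71 ± 0.55, adjusted p = 0.044), and Esam had no count. All 6 were lost without uninjured library 2, at 0.09 for Esam and up to 0.452 for Dcn. At 28 days Emcn, Mfap5 and Pdgfrb rose. Pdgfrb was at 3.54 and 5.62 CPM (2.15 ± 0.59, 0.0308), and the 3 calls were lost without uninjured library 1 (0.148 to 0.303). The vessel sum without Tek lay at 51.5 CPM in 28 day library 1 and 10.3 CPM in library 2.

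Uninjured old cells (oQSC) carried more of most of these markers than uninjured younger cells. Of the 45 members 24 were called, where 21.6% of all genes were, and all 24 were higher in oQSC (12.3% of all genes were). The median log2 fold change was 3.79, or 3.22 with genes at 0 set to their bound, against 0.49 over all genes. Satellite cell genes differed too: Pax7 was at 84.5 and 72.7 CPM and Myod1 at 1070 and 1536 CPM in oQSC, against 41.4 and 50.8 CPM of Myod1 in uninjured younger cells, so oQSC matched the younger cells in neither. The 2 groups are in different tables and their ages, tables and marker content cannot be told apart.

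The calls kept in oQSC were mostly those of matrix and connective tissue genes. Dcn was at 548 and 461 CPM (log2 fold change 5.36 ± 0.64 over younger cells, adjusted p = 6.65e-06), Mfap5 at 17.6 and 13.3 CPM (6.51 ± 1.31, 0.00124) and Pdgfra at 3.98 and 5.25 CPM, at least 50.1-fold higher. With Emcn, at 7.30 and 3.25 CPM and at least 55.9-fold higher, these were the 4 calls kept without each library. Lum was at 38.4 and 31.9 CPM (7.68 ± 1.74, 0.00308, lost without uninjured library 1 at 0.053). Cd14 was at 80.6 and 63.1 CPM, near the 65.1 CPM of 32 h library 2 (6.67 ± 1.74, 0.00872, lost without uninjured library 1 at 0.0999 or 2 at 0.0958), and Lyz2 at 50.9 and 40.1 CPM (5.24 ± 1.41, 0.0101, lost without uninjured library 1 at 0.0686 or 2 at 0.127). The other 17 calls were each lost without at least 1 library, most often an uninjured one. Tek, at 70.2 and 98.6 CPM, and Dpt, at 123 and 132 CPM, were not called.

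Within the old cells most members were lower after injury. In oASC against oQSC 30 members were called (40.3% of all genes), 26 of them lower (21.3%), and 22 of the 30 were kept without each library. The median log2 fold change was -1.52 over the members and -0.33 over all genes. Calls came from vessel, matrix, tendon, mural, neutrophil and red cell genes. Dcn was at 29.1 and 21.6 CPM in oASC (fell by 4.33 ± 0.26 in log2 units, adjusted p = 1.15e-05), Dpt at 7.58 and 4.72 CPM (fell by 4.38 ± 0.49), and Fmod at 1.46 and 1.01 CPM from 45.6 and 59.3 CPM (fell by 5.41 ± 0.48). Tnmd was at 0 and 0.199 CPM from 5.33 and 6.62 CPM (adjusted p = 0.00093). Tek was at 7.46 and 3.47 CPM (fell by 3.95 ± 0.38, adjusted p = 8.93e-05), Kcnj8 at 0.324 and 0.258 CPM from 8.58 and 12.8 CPM (fell by 5.19 ± 0.41), and Hba-a1 at 2.63 and 2.62 CPM (fell by 5.16 ± 0.30). The neutrophil gene Retnlg had no count in oASC and was at least 68.1-fold lower. All of these calls were kept without each library.

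Of 12 macrophage genes 3 rose in oASC (19% of all genes did), 2 fell (21.3%) and the other 7 were not called, shares near those of all genes. Arg1 rose from 0.460 and 0.298 CPM to 3.59 and 2.38 CPM (log2 fold change 2.96 ± 0.51, adjusted p = 0.00196), and Mrc1 from 0.460 and 0.477 CPM to 5.03 and 4.49 CPM (3.33 ± 0.65, 0.0039), both kept. Csf1r rose by 1.69 ± 0.44 (adjusted p = 0.0159), lost without oQSC library 1 (0.0655) or oASC library 2 (0.0877). Cd14 fell to 14.3 and 16.5 CPM (by 2.24 ± 0.24 in log2 units, adjusted p = 0.000154, kept). The tendon transcription factor gene Scx rose to 7.27 and 4.82 CPM from 0.559 and 0.388 CPM (3.66 ± 0.71, 0.00374, kept). Acta2, at 245 and 241 CPM, was not called.

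In oFISC against oQSC 31 members were called (41.9% of all genes), 27 of them lower (22.6%), and 19 of the 31 were kept without each library. The median was -1.80 over the members and 0.52 over all genes. The source label of oFISC does not name fixation in place, and whether these cells were injured is uncertain. Isolation, injury and cell state therefore cannot be told apart in this comparison. Macrophage genes fell here, 8 of 12, with Lyz2 at 8.33 and 2.57 CPM, Ctss at 0.463 and 0.610 CPM (fell by 4.17 ± 0.40 in log2 units, adjusted p = 0.000157) and Cd14 at 6.64 and 8.06 CPM (fell by 3.67 ± 0.26, 9.89e-05). Ptprc went the other way, from 1.48 and 1.31 CPM to 9.26 and 6.18 CPM (log2 fold change 2.06 ± 0.41, adjusted p = 0.00535, kept), and these were its highest libraries in the series. Among 6 lymphocyte genes, the T cell gene Cd3e was highest in the same libraries, at 3.55 and 1.39 CPM, and the B cell gene Ms4a1 at 1.54 and 2.22 CPM. Cd79a, the one with the highest CPM in oQSC, was lower in oFISC, at 2.24 and 1.96 CPM from 5.72 and 6.23 CPM, and Nkg7 had no count there. The 6 together averaged 7.06 CPM in oQSC and 7.00 CPM in oFISC. The part of lymphocytes in the Ptprc level was not tested. Arg1 (adjusted p = 0.0181), Csf3r (0.0257) and Pdgfrb (0.0369) also rose. Their calls were lost without oFISC library 2, at 0.0617, 0.119 and 0.0543, and also without other libraries, Arg1 without oQSC library 2 (0.0814) and the other genes without any 1 library (0.0831 to 0.119 for Csf3r and 0.0543 to 0.154 for Pdgfrb).

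Between injured old cells (oASC) and younger cells at 60 h no member was called (edgeR, 2.2% of all genes were). An unadjusted p under 0.05 was found for 7, and DESeq2 called 3 (6.69% of all genes). The median log2 fold change was 0 over the members and 0.25 over all genes. The 2 sets of libraries were close for several members: Tek was at 7.46 and 3.47 CPM in oASC and 2.25 and 2.47 CPM at 60 h, and Dpt at 7.58 and 4.72 against 8.55 and 7.28 CPM. Postn was at 3.02 and 3.67 CPM in oASC and 18 and 13.9 CPM at 60 h (log2 difference -2.25 ± 0.81, adjusted p = 0.174). The groups were taken after the same span (2.5 days and 60 h) and differ in age label and table.

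The response to injury, oASC against oQSC set against 60 h against uninjured, differed between old and younger cells for 10 members (7.28% of all genes), all with a smaller or more negative change in old cells (3.99% of all genes). Dcn changed little in younger cells, from 16.3 and 8.37 to 16.5 and 9.75 CPM, and fell in old cells from 548 and 461 to 29.1 and 21.6 CPM. The difference was -4.41 ± 0.79 in log2 units (adjusted p = 0.00179), the only 1 of the 10 kept without each library. Postn rose in younger cells and was at 4.31 and 5.6 CPM in oQSC and 3.02 and 3.67 CPM in oASC, a difference of -4.99 ± 1.19 (adjusted p = 0.0135) that was lost without oASC library 1 (0.0847) or 2 (0.0666). The comparison rests on the starting levels as well as on the responses, since 24 members were already higher in oQSC. The other 8 were Lyz2, Cd68, Ctss, Fcgr3, Fcer1g, Emcn, Pdgfra and Fmod, each lost without at least 5 of the 8 libraries but Emcn, lost without 4.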

How the data were processed

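Per the labels' protocols, the miRNeasy FFPE kit gave the RNA, SMART-Seq v4 the cDNA and Tn5 the libraries, which were read paired-end. Per the submitters' processing notes, Trimmomatic 0.36, HISAT2 2.1.0, SAMtools 1.3, StringTie 1.3.3 and mm10 were used. For the counting program, its strand setting and the annotation release, these sources name nothing. The authors deposited whole-number counts per gene in 3 tables, which list 55450 (time course), 55450 (regeneration) and 55335 (old cells) identifiers. Of these, 55154 are in all 3. Copies made by amplification are counted.

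Members were found by symbol. Counts were fitted with edgeR 4.0.16 (R 4.3.3, limma 3.58.1, data.table version 1.17.8), with filterByExpr (minimum count 10, minimum total 15), TMM, group means and the quasi-likelihood F test. A call is an adjusted p under 0.05, by Benjamini-Hochberg across every gene of a fit. The fits were the time course (18 libraries, 22479 genes), regeneration (6, 16954), old cells (6, 30099) and all 30 (28823) for comparisons between tables. Levels are CPM with TMM sizes of the fit to all 30 libraries. Standard errors are the log2 fold change over the square root of F. Folds against groups without counts use 3 counts across both libraries as the floor. Exon lengths, positions and overlaps came from GENCODE M21 (41 of 45 members share no exon base with another gene), promoters from RefSeq on GRCm38.p6. Tables and figures were made with Python 3.11.15, pandas 2.3.3, numpy 2.4.6 and matplotlib 3.10.9.

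Members were named where a group mean reached 20 CPM or a call was made, and of each further list up to 4 genes with the highest mean CPM; Ly6g and the granule genes were looked at as neutrophil genes. The members and lists were chosen with earlier results of these data known. Alternatives were DESeq2 1.42.0, RLE scaling, no filter, the replicate number as a block, only the groups compared, and leaving out each library in turn. On simulated data, 0%, 8%, 40% and 66% of 2, 4, 16 and 64-fold changes were called for 32 h against uninjured cells (22479 genes), 2%, 8%, 20% and 40% for 7 days (28823 genes), and 4%, 32%, 78% and 88% for oASC against oQSC (30099 genes).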

Additional observations from a re-analysis of the deposited data

Results flagged for a closer look

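The injury response (oASC against oQSC, less 60 h against uninjured cells) differed between old and younger cells for 10 members, by a test of the difference itself (edgeR's quasi-likelihood test, adjusted p from 0.00179 to 0.0464). On the log2 scale the differences were -5.924 for Lyz2, -4.088 for Cd68, -11.888 for Ctss, -9.878 for Fcgr3, -10.579 for Fcer1g, -10.92 for Emcn, -7.887 for Pdgfra, -4.414 for Dcn, -4.99 for Postn and -5.423 for Fmod. Ctss, Fcgr3, Fcer1g, Emcn and Pdgfra had no count in the uninjured libraries, so their fitted differences depend on the prior count and are no sizes. Lyz2 averaged 1.25 CPM in uninjured cells and 84.3 CPM at 60 h, against 45.5 CPM in oQSC and 52.5 CPM in oASC. Cd68 averaged 2.29 and 19.7 CPM in the younger groups and 16.4 and 8.26 CPM in the old ones. Fmod averaged 2.72 CPM in uninjured cells and at 60 h, and 52.5 and 1.24 CPM in oQSC and oASC. Dcn alone was kept without each library.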

How the results depend on the processing

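The 45 members gave 252 calls over all comparisons. DESeq2 kept 248, RLE scaling 232, no filter 244 and the replicate block 217, while fits to only the compared groups kept 188 of the 241 they could test. Without 1 library, 515 of 1048 were kept and 75 calls were kept in every alternative. No called value reversed in any of these alternatives. Fcer1g at 14 days had no count in 14 day library 2 or in either uninjured library, so it gave a log2 fold change of 0.000 without 14 day library 1. DESeq2 called 22, 25, 20 and 34 members at 0.5, 1, 2 and 4 h (21.4%, 21.1%, 20.4% and 22.9% of all genes). It called 15, 13 and 11 at 7, 14 and 28 days (18.4%, 20.2% and 13.8%) and 8 for 28 against 7 days (7.15%). For oASC against 60 h it called 3 (6.69%), and 18 for the difference of responses (14.4%). Without a filter the counts were 23, 25, 20 and 33 at 0.5 to 4 h (7.95%, 7.88%, 7.48% and 8.74% of all genes) and 26 at 16 h (14.8%). They were 16, 15 and 14 at 7, 14 and 28 days (6.76%, 7.75% and 4.05%) and 7 for 28 against 7 days (2.29%). For oASC against 60 h the count was 5 (2.01%), and 23 for the difference of responses (4.89%). With only the compared groups the counts were 0, 5, 0 and 2 at 0.5 to 4 h (0%, 4.91%, 0.569% and 1.19% of all genes) and 0 at 14 days (0%). They were 4 for 28 against 7 days (4.16%), 7 of 45 for oASC against 60 h (40.5%) and 27 of 45 for the difference of responses (36.6%). The 7 for oASC against 60 h thus lay below the share of all genes. Over 105 pairs of groups, same-numbered libraries deviated together at r over 0.1 in 12 (median 0.00569, range -0.677 to 0.626). Libraries were therefore not paired by number in the main fits. Whether same-numbered libraries share a batch or an animal was not tested. With the replicate block 13 members were called at 4 h (7.94% of all genes). Without each library in turn the counts ran from 0 to 8 at 0.5 h, 1 to 11 at 1 h, 1 to 11 at 2 h, 2 to 20 at 4 h, 6 to 13 at 8 h, 7 to 12 at 16 h, 11 to 16 at 32 h, 9 to 13 at 60 h, 1 to 4 at 7 days, 1 to 5 at 14 days, 0 to 3 at 28 days, 0 to 0 for 28 against 7 days, 22 to 32 for oFISC, 25 to 27 for oASC, 7 to 12 for oQSC against uninjured and 2 to 8 for the difference of responses. The cause of these differences was not tested. With 2 libraries per group and common dispersions of 0.316 in the fits that hold the uninjured libraries, small changes could not be seen, and depth limits members near 1 CPM.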
